A study of Danio rerio with 11 samples.

Results

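The regions described here are methylation peaks found in adult brain and in sperm but not in the other adult tissues examined. They were selected on presence in the deposited peak lists: a brain peak was taken when its interval overlapped a sperm peak by 1 bp or more and overlapped no peak of eye, heart or liver. Of the 79008 peaks in the brain list, 19356 met this rule, and the 9 lists of the series hold 816382 peaks in all. These 19356 regions are called brain-sperm peaks below. Since presence in the brain, sperm, eye, heart and liver lists chose them, the values in those 5 lists are a description. The lists of one-cell embryos, mbt embryos, 3dpf embryos and methotrexate-treated 3dpf embryos played no part in it.

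The data are MBD-seq peak lists from Tübingen/AB zebrafish. The terminal tissues brain, eye, heart and liver were pooled from 10 untreated adult females of about 11 months, and sperm came from 10 untreated males. The embryonic samples were pools of whole embryos at the one-cell stage, at the mid-blastula transition (mbt) and at 3 days post-fertilization (3dpf), all untreated, and of 3dpf embryos exposed to 400 µM methotrexate (MTX) from the one-cell stage. Each condition had 1 methylation-enriched sample and 1 list, so no difference between conditions has a replicate check. All intervals given below cover counting error only. The libraries of sperm, one-cell and mbt embryos were run in lane 5, those of the eye, heart and liver in lane 4, each set against the methylation-poor brain library of its own lane. The study's list of libraries puts both 3dpf libraries in another lane, each with a methylation-poor control library of its own. The brain peaks were called on lanes 4 and 5 together, and the study does not state whether both lanes held the same enriched library. A brain peak shared with a lane 5 sample and absent from all lane 4 samples therefore cannot be told apart from an effect of the lane, its control or the second lane of brain reads. Reads per list were not used here. Lists held between 45785 peaks in eye and 178587 in one-cell embryos, with 96505 in sperm.

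In MBD-seq, a methyl-CpG binding domain protein captures fragments with many methylated CpGs, so a peak marks a stretch of dense methylated CpG and not the methylation level of 1 cytosine. CpG methylation is copied at cell division by DNMT1 and placed on new sites by the DNMT3 enzymes. In zebrafish, the methylation pattern of sperm is known to be passed to the embryo largely intact, whereas the pattern of the egg is changed before the mid-blastula transition. A region with a peak in sperm and in 1 adult tissue alone raises the question in which stages the peak is already present. A missing peak does not show that the region lacks methylation. A pool of a tissue holds many cell types, and a peak may come from some of them.

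The same rule gave far fewer regions in the other terminal tissues. Peaks shared with sperm and absent from the other 3 terminal tissues made up 24.5% of the brain peaks (19356 of 79008), 0.763% of the liver peaks (383 of 50170), 0.619% of the heart peaks (310 of 50110) and 0.315% of the eye peaks (144 of 45785). Sharing with sperm was common among brain peaks in general, at 79.2% of the whole list (62584 of 79008). It was less common among brain peaks absent from eye, heart and liver, where 19356 had a sperm peak and 10982 did not. Of the brain peaks with eye, heart or liver, 43228 had a sperm peak and 5442 did not. Among the peaks a tissue shared with sperm, the share that met the rule was 30.9% in brain, 0.888% in liver, 0.721% in heart and 0.368% in eye. For the shares of all peaks of a tissue, the Wilson 95% interval was 24.2% to 24.8% in brain. It did not exceed 0.843% in the other tissues. Peaks absent from the other 3 terminal tissues and from sperm numbered 10982 in brain, against 660 in liver, 490 in heart and 388 in eye. A higher count in brain was thus not particular to the peaks shared with sperm. The eye, heart and liver regions also had to lack a brain peak, and the brain list is the longest of the terminal lists. The number of regions depended on the length of the lists. When every list was shortened to its 45785 highest-scoring peaks, the counts were 1629 in brain, 648 in liver, 557 in heart and 396 in eye. With the brain list alone shortened to the length of the liver list, an alternative chosen after seeing the data, 3508 brain-sperm peaks were left.

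**Figure D1:**
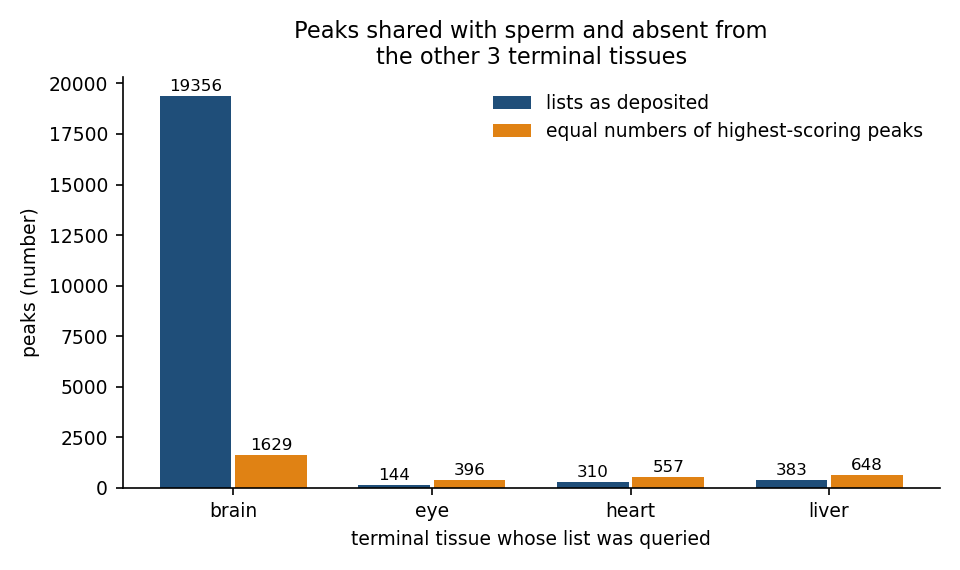
Number of peaks (vertical axis) shared with sperm and absent from the other 3 terminal tissues, for each terminal tissue in turn (horizontal axis), with the lists as deposited and with every list shortened to its 45785 highest-scoring peaks. Brain stands above the other tissues in both, with 19356 against 144 to 383 peaks as deposited and 1629 against 396 to 648 at equal numbers.

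Most brain-sperm peaks ranked low within the brain list and in the middle of the sperm list. The score is the peak caller's value, given without a unit, and its percentile within a list is the share of peaks with a score at or below it. In 3dpf embryos, the paper saw no relation between this score and CpG methylation measured by bisulfite sequencing. A higher rank or an equal score thus does not stand for more or equal methylation. The median percentile was 19.6 in brain (quartiles 9.74 and 31.9) and 42.8 in sperm (quartiles 27.5 and 55.9). The median scores behind these ranks were 31.7 in brain and 59.0 in sperm. The sperm percentile exceeded the brain percentile at 16214 of the 19356 regions, which is 83.8%. A higher rank in sperm was not particular to these regions. Brain peaks shared with sperm and with eye, heart or liver had median percentiles of 65.0 in brain and 74.8 in sperm. Only 1190 brain-sperm peaks, 6.15%, scored at or above the median of the brain list, and 675 of them were at or above the median of both lists. Brain-sperm peaks made up 63.8% of the lowest score decile of the brain list, 18.8% of the fifth, 1.25% of the ninth and 2.53% of the highest.

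**Figure D2:**
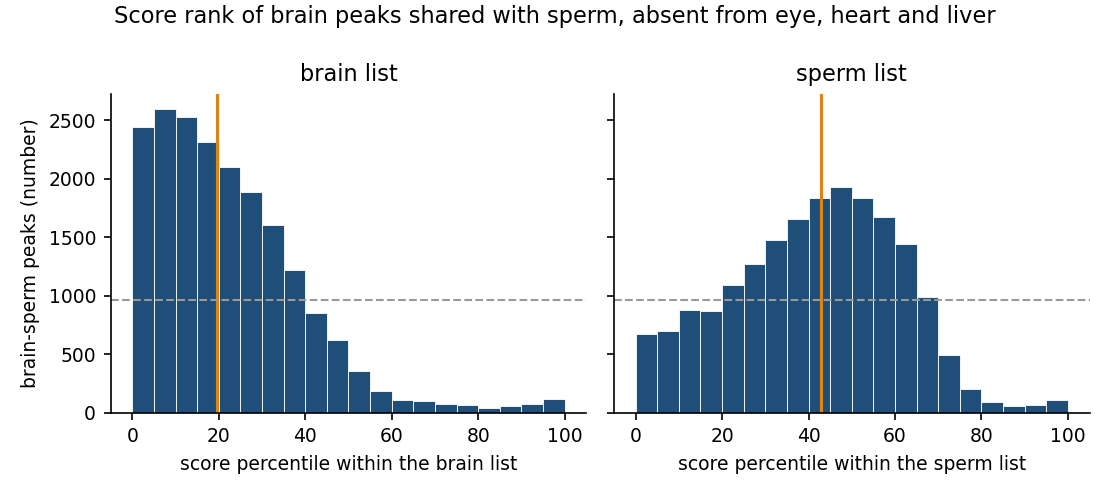
Number of brain-sperm peaks (vertical axis) by score percentile within the brain list (left) and the sperm list (right). The orange line is the median, 19.6 in brain and 42.8 in sperm, and the dashed line is the level that an even spread over the list would give.

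The positions in brain and sperm were close. The centers of the brain peak and its sperm peak lay 20 bp apart in the median (quartiles 9 and 43 bp), and their intervals, which reach 100 bp to each side of the center, overlapped by 181 bp in the median. The regions overlapped 19356 different sperm peaks, 20.1% of that list. Taken from the side of sperm, 49570 sperm peaks overlapped no eye, heart or liver peak, and 19406 of these, 39.1%, overlapped a brain peak. That share changed with the sperm score. It was 16.1% in the lowest decile of the sperm list (95% CI 15.3 to 16.9), 75.8% in the seventh (95% CI 74.3 to 77.3) and 25.4% in the highest (95% CI 22.4 to 28.7).

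Of the brain-sperm peaks, 95.6% had a peak in at least 1 embryonic list (18497 of 19356), against 86.0% of all brain peaks and 98.0% of the brain peaks shared with sperm and with eye, heart or liver. Of the 19356, 15997 were present in one-cell embryos, which is 82.6% (95% CI 82.1 to 83.2, Wilson), where 69.9% of all brain peaks were. In mbt embryos 16544 were present, or 85.5% (95% CI 85.0 to 86.0), against 76.0% of all brain peaks. In 3dpf embryos 15520 were present, or 80.2% (95% CI 79.6 to 80.7), against 75.5% of all brain peaks. In MTX-3dpf embryos 13645 were present, or 70.5% (95% CI 69.8 to 71.1), against 71.6% of all brain peaks. Without regard to score, the share was thus above that of all brain peaks in one-cell, mbt and 3dpf embryos and below it in MTX-3dpf. Against the 59652 other brain peaks the difference in MTX-3dpf was -1.50 percentage points (95% CI -2.24 to -0.77). It turned to 20.5 points at equal brain score (95% CI 19.6 to 21.5), and the differences in one-cell, mbt and 3dpf embryos were then 29.5, 34.1 and 26.7 points. The other brain peaks include peaks without sperm, which the rule excludes from the brain-sperm peaks. Set against brain peaks shared with sperm and with eye, heart or liver, brain-sperm peaks differed less at equal brain score. Those differences were 0.46 points (one-cell), -5.32 (mbt), -5.86 (3dpf) and -9.13 (MTX-3dpf). The list of MTX-3dpf is the shortest of the 4 with 91872 peaks, and that of one-cell embryos the longest.

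Brain peaks that lacked sperm as well as eye, heart and liver looked different. These 10982 peaks were in the one-cell list in 17.8%, in the mbt list in 10.97%, in the 3dpf list in 17.3% and in the MTX-3dpf list in 15.6%. At equal brain score, with the shares of the 10 score deciles weighted as in the brain-sperm peaks, the brain-sperm peaks exceeded them by 59.4 percentage points at the one-cell stage (95% CI 58.3 to 60.5) and by 71.9 in mbt (95% CI 70.9 to 72.8). The excess was 59.9 points in 3dpf (95% CI 58.9 to 60.97) and 52.4 in MTX-3dpf (95% CI 51.3 to 53.4). These differences were between 46.7 and 73.3 points under the alternatives tried. They compare regions within 1 list per condition and are not a test across animals. The comparison set was chosen for lacking sperm, eye, heart and liver peaks, whereas every brain-sperm peak has sperm. Higher presence in embryos can follow from this choice. Sperm also shared lane and control with one-cell and mbt embryos. Against brain peaks without sperm but with eye, heart or liver, the excess was 52.6, 63.9, 46.5 and 37.0 points. This was at equal brain score and in the same order of lists. The part of choice and lane in these differences was not tested.

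Among sperm peaks absent from eye, heart and liver, those with a brain peak were more often present in the later embryos. The 19406 with a brain peak were in the 3dpf list in 80.2% (95% CI 79.7 to 80.8), against 56.0% (95% CI 55.4 to 56.5) of the 30164 without one. In MTX-3dpf the shares were 70.5% and 44.3%, and in mbt 85.6% and 75.5%. The one-cell list differed least, with 83.0% against 79.8%. Sperm peaks with and without a brain peak differed in score, and these shares were not matched for it.

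The 43228 brain peaks that sperm shared together with eye, heart or liver were closer to the brain-sperm peaks. They were present in the one-cell list in 82.4%, in the mbt list in 93.8%, in the 3dpf list in 91.6% and in the MTX-3dpf list in 89.4%. Without regard to score, the difference was 0.28 percentage points at the one-cell stage (95% CI -0.37 to 0.92, Newcombe), -8.28 in mbt (95% CI -8.83 to -7.74), -11.4 in 3dpf (95% CI -12.0 to -10.8) and -18.9 in MTX-3dpf (95% CI -19.7 to -18.2). The differences depended on the score used for matching. At equal brain score they were 0.46, -5.32, -5.86 and -9.13 points, in the same order of lists. With every list shortened to the same number of peaks, those of mbt, 3dpf and MTX-3dpf were -16.8, -19.4 and -17.0 points, and that of mbt was -2.69 with peaks at or above each list's median score. At equal sperm score, an alternative chosen after seeing the data, they were 11.5, 1.27, -0.44 and -5.99 points, and the interval of the difference in 3dpf was -1.29 to 0.42. In MTX-3dpf the interval lay below 0 at equal brain score (-10.6 to -7.64) and at equal sperm score (-6.93 to -5.06). In mbt the interval lay below 0 at equal brain score and above 0 at equal sperm score (0.50 to 2.05). In 3dpf it lay below 0 at equal brain score and included 0 at equal sperm score. In one-cell embryos it included 0 at equal brain score and lay above 0 at equal sperm score (10.6 to 12.4).

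**Figure D3:**
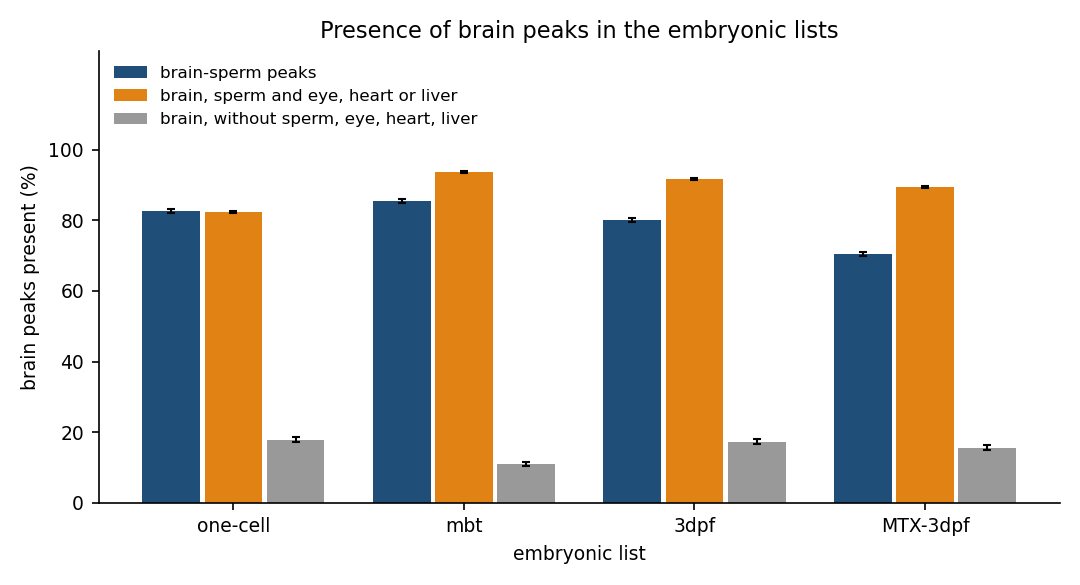
Share of brain peaks in percent (vertical axis) that overlap a peak of each embryonic list (horizontal axis), for the brain-sperm peaks and for both comparison sets of brain peaks, with Wilson 95% intervals. The brain-sperm peaks lie between 70.5% and 85.5%, above the brain peaks without sperm, eye, heart and liver (10.97% to 17.8%).

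Presence was most often shared by all embryonic lists. Of the brain-sperm peaks, 11137 were in all 4 embryonic lists, which is 57.5% (95% CI 56.8 to 58.2), against 74.6% of the brain peaks shared with sperm and with eye, heart or liver. Among all brain peaks the share was 56.1%. Another 1730 brain-sperm peaks (8.94%) were in one-cell, mbt and 3dpf but not in MTX-3dpf, against 2.35% of that comparison set and 3.66% of all brain peaks. The 1155 in mbt and both 3dpf lists but not in one-cell embryos were 5.97%, against 10.8% and 8.38%. Regions in one-cell or mbt embryos and in neither 3dpf list numbered 2617, or 13.5% (95% CI 13.0 to 14.0), against 5.0% of that comparison set and 8.50% of all brain peaks. The converse, a peak in a 3dpf list and in neither one-cell nor mbt embryos, was found at 681 regions, or 3.52%, against 2.15% and 4.61%. The shares in this paragraph were not matched for score. The median percentile of the brain-sperm peaks was 19.6 in brain and 42.8 in sperm, against 65.0 and 74.8 in that comparison set. One-cell and mbt embryos share lane 5 with sperm and with part of the brain reads. The part of score and lane in these shares was not tested. No embryonic list held 859 brain-sperm peaks, or 4.44%, which were thus in the brain and sperm lists alone. This was the case for 1.99% of the comparison set and 14.0% of all brain peaks.

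Where a brain-sperm peak was present in an embryonic list, its rank differed between the lists. The median percentile was 72.2 at the one-cell stage (15997 regions), 56.3 in mbt (16544 regions), 44.5 in 3dpf (15520 regions) and 41.5 in MTX-3dpf (13645 regions). For the brain peaks shared with sperm and with eye, heart or liver, the corresponding medians were 83.6, 80.8, 75.4 and 72.6. The percentiles depend on how many low-scoring peaks a list holds, and the one-cell list holds the most peaks.

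The few brain-sperm peaks with high brain scores were less often present in the embryonic lists. Among the 1190 at or above the median brain score, 58.9% were in the one-cell list, 67.1% in that of mbt, 65.2% in that of 3dpf and 62.4% in that of MTX-3dpf, and 149 (12.5%) were in no embryonic list. The corresponding shares of the 18166 below the median were 84.2%, 86.7%, 81.2% and 71.0%, and 710 (3.91%) were in none. In the highest score decile of the brain list, the 200 brain-sperm peaks had shares of 47.5%, 56.0%, 51.5% and 53.0% in the same order of lists. The 5614 brain peaks of that decile shared with sperm and with eye, heart or liver had 78.6%, 93.8%, 91.1% and 89.2%.

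**Figure D4:**
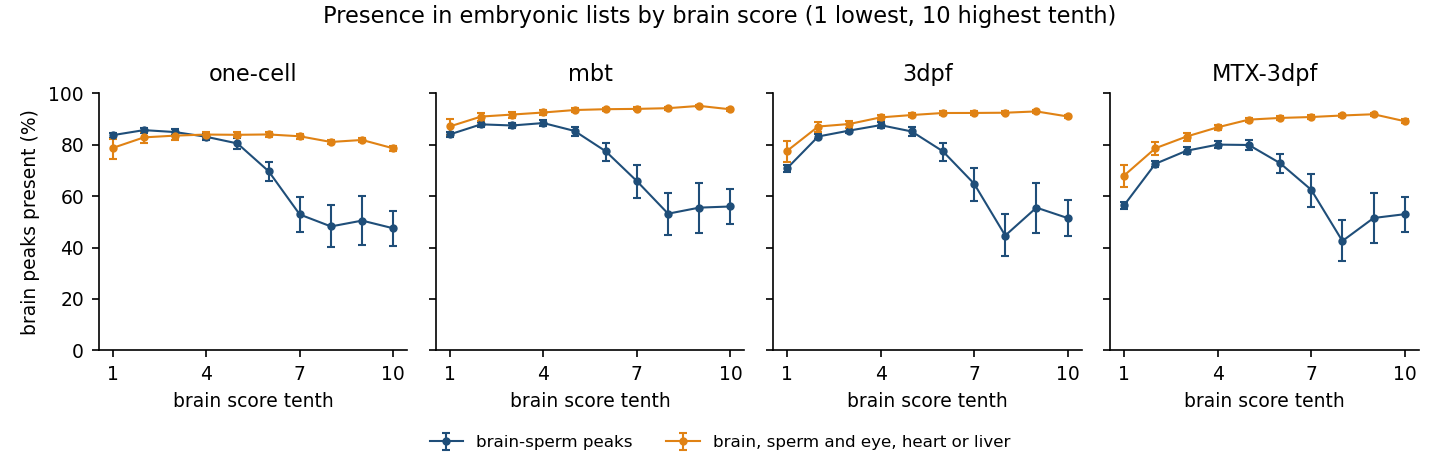
Share of brain peaks in percent (vertical axis) present in each embryonic list, by score decile of the brain list (horizontal axis, 10 the highest), with Wilson 95% intervals. The brain-sperm peaks have 47.5% to 56.0% in the highest decile, where the brain peaks shared with sperm and with eye, heart or liver have 78.6% to 93.8%, and the sets lie closer together in the lower deciles.

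The high-scoring regions also lay closer to peaks of the other tissues. An eye, heart or liver peak was found within 1000 bp at 82.0% of the 200 brain-sperm peaks of the highest brain decile and at 84.8% of the 99 of the ninth, but at 3.97% of the 5041 of the lowest. The median distance was 388.5 bp in the highest decile and 7812 bp in the lowest. Over the 19288 brain-sperm peaks on a sequence that holds an eye, heart or liver peak, it was 7061 bp (quartiles 2800 and 16268 bp). Of all 19356, 1323 (6.84%) had such a peak within 1000 bp. Just inside the rule, 126 regions had an eye, heart or liver peak at most 100 bp away from the interval, and their median brain percentile was 64.2. Just outside it, 242 brain peaks shared with sperm overlapped an eye, heart or liver peak by 50 bp or less, with a median brain percentile of 73.2. On the side of sperm, 319 brain-sperm peaks overlapped their sperm peak by 50 bp or less, and 412 brain peaks without eye, heart or liver had a sperm peak at most 100 bp away without overlap. Leaving out every region with an eye, heart or liver peak center within 1000 bp kept 18525 brain-sperm peaks. Measured from the interval, 438 of the 1190 regions at or above the median brain score had an eye, heart or liver peak within 1000 bp, and these were in the embryonic lists in 55.0% (one-cell), 59.4% (mbt), 56.2% (3dpf) and 56.2% (MTX-3dpf). The shares of the other 752 were 61.2%, 71.7%, 70.5% and 66.0%. Below the median brain score, the 885 regions with a peak that near had 68.4%, 75.8%, 83.1% and 74.4%, and the other 17281 had 85.0%, 87.2%, 81.1% and 70.9%. Near such a peak, presence was thus lower in all 4 lists at high brain scores, and at low brain scores it was lower in one-cell and mbt embryos and higher in both 3dpf lists. The part of this distance in the lower presence at high brain scores was not tested.

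The 5 regions with the highest rank in both lists differed in their pattern across the embryonic lists. On Zv9, chr18:47162551-47162751 had a brain score of 884 (percentile 99.8) and a sperm score of 623 (percentile 99.9), and was in one-cell and mbt embryos but in neither 3dpf list. The nearest eye, heart or liver peak was 1 bp from its interval. The region chr12:17595001-17595201 had the same pattern in the embryos, with scores of 905 in brain and 521 in sperm and the nearest such peak 1182 bp away. The regions chr19:25501675-25501875 and chr24:8504612-8504812 were in mbt, 3dpf and MTX-3dpf but not in one-cell embryos, with brain scores of 932 and 992. An eye, heart or liver peak lay 166 bp from the former and 932 bp from the latter. The region chr9:41935473-41935673 was present in all 4 embryonic lists, with scores of 960 in brain and 463 in sperm and the nearest eye, heart or liver peak 1713 bp away. It overlapped its sperm peak by 82 bp.

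Among the brain-sperm peaks in all 4 embryonic lists, the next in rank were chr1:32267657-32267857, with scores of 848 in brain and 434 in sperm, and chr14:5799251-5799451, with 758 and 425. Their nearest eye, heart or liver peaks were 296 and 187 bp away. Among those in none of the embryonic lists, chr7:6228118-6228318 ranked highest, with scores of 815 in brain and 445 in sperm. It was followed by chr8:49832060-49832260, with 767 and 417, and chr15:2759313-2759513, with 754 and 426. At these 3 regions an eye, heart or liver peak lay 153, 267 and 813 bp away. Genes at the regions were not analysed here, because an annotation of Zv9 was not used.

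Brain-sperm peaks were found on every chromosome in similar proportion. Their share of the brain peaks ran from 20.7% on chromosome 4 (862 of 4160, 95% CI 19.5 to 22.0) to 27.4% on chromosome 20 (911 of 3324, 95% CI 25.9 to 28.9). On the unplaced sequences it was 19.9% (816 of 4104, 95% CI 18.7 to 21.1). Chromosome 7 held the most, 1023, and chromosome 24 the fewest, 514. Per megabase, chromosome 22 had the most with 18.2, and chromosome 24 the fewest with 11.7. On chromosome 4, the share was 26.8% up to 25 Mb (166 of 620) and 19.7% beyond it (696 of 3540). The brain-sperm peaks of chromosome 4 were also less often in the embryonic lists, with 70.2%, 65.0%, 64.8% and 55.5% in one-cell, mbt, 3dpf and MTX-3dpf embryos. These were the lowest shares of all 25 chromosomes in each of the 4 lists. The corresponding shares of all brain peaks on chromosome 4 are not given here. Whether the low presence is particular to the brain-sperm peaks of this chromosome was not tested.

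Along the chromosomes the share changed little. With each chromosome divided into 10 equal stretches, the share was between 23.9% and 26.4%. The stretches at both ends held the most brain peaks, 11500 and 12300, and 2750 and 3030 brain-sperm peaks. Of the 1369 windows of 1 Mb with a brain peak on the 25 chromosomes, 1367 held a brain-sperm peak, with a median of 12. The window with the most, 44, was on chromosome 4 from 58000001 to 59000000, where they made up 23.4% of 188 brain peaks. The highest share among windows with at least 20 brain peaks was 50% of 32 brain peaks on chromosome 11 from 29000001 to 30000000 and of 22 on chromosome 19 from 27000001 to 28000000. On unplaced Zv9 sequences, 2 windows with 28 and 22 brain peaks held none.

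Few brain-sperm peaks lay within 5 kb of another, and most lay within 50 kb of one. The median gap to the nearest other brain-sperm peak was 19199 bp over the 19161 with another on their sequence. Of all, 32.0% had another within 10 kb (6185 of 19356, 95% CI 31.3 to 32.6). Within 5 kb the share was 18.9% and within 50 kb 77.6%. The share within 10 kb was 17.5% with peaks at or above each list's median score and 4.97% with lists of equal length, which hold fewer regions. The next brain peak along the sequence was a brain-sperm peak in 25.7% of cases after a brain-sperm peak (95% CI 25.1 to 26.3) and in 24.1% after another brain peak (95% CI 23.8 to 24.5). For gaps up to 5 kb these shares were 27.9% (95% CI 26.8 to 29.0) and 22.9% (95% CI 22.3 to 23.5), and for longer gaps 24.6% and 24.7%. Where the next brain peak scored at or above the median, it was a brain-sperm peak in 2.76% of cases after a brain-sperm peak (95% CI 2.45 to 3.11) and in 3.09% after another (95% CI 2.90 to 3.29). Where it scored below the median, these shares were 48.7% (95% CI 47.7 to 49.7) and 45.2% (95% CI 44.7 to 45.8). Joining brain-sperm peaks with gaps of at most 5 kb left 15703 single regions, which are 81.1% of all. There were 1477 runs of 2, 182 of 3, 24 of 4 and 10 of 5 or more.

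Both longest runs, of 8 brain-sperm peaks each, lay next to each other on chromosome 20. They span chr20:12937269-12949653 and chr20:12954993-12970493, with 5339 bp between them. Their 16 brain-sperm peaks had brain scores between 9.13 and 427 (median 98.95) and sperm scores between 2.85 and 100 (median 20.6). Of the 16, the one-cell list held 9, the mbt list 12, the 3dpf list 11 and the MTX-3dpf list 9, and 1 was in none of them. Over the whole 33225 bp, brain and sperm had 23 peaks each, mbt and 3dpf embryos 18 each, MTX-3dpf embryos 13, one-cell embryos 12, heart and liver 3 each and eye 1. A stretch of 12 consecutive brain peaks there, not all of them brain-sperm peaks, was spaced by 860 to 1099 bp (median 954 bp). In sperm, the longest stretch with spacings up to 1200 bp held 5 peaks. The brain feature was chosen after its values were seen. Sequence of the build was not used here, so whether a repeat underlies the brain spacing was not tested.

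The next runs in length were on chromosomes 13, 21 and 16. The run of 6 at chr13:41748986-41763034 had low brain ranks (median percentile 11.2), and the nearest eye, heart or liver peak was 63080 bp away. The run of 5 at chr21:19076615-19086784 ranked higher in brain (median percentile 60.7) than in sperm (27.4), and only 1 of its 5 regions was in one-cell embryos. The run of 5 at chr16:19430943-19443507 had a median percentile of 29.4 in brain and 53.2 in sperm, and 4 of its regions were in each of one-cell, mbt and 3dpf embryos. The nearest eye, heart or liver peak was 682 bp from a region of the chr21 run and 925 bp from one of the chr16 run. In the pair of runs on chromosome 20 this distance was 705 and 674 bp.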

How the data were processed

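Per the labels and the study's methods, the authors aligned the reads to the Zv9 build with BWA 0.5.8c, kept properly paired reads above a mapping quality minimum, called peaks with MACS2 2.0.10.20120703 and extended each peak center by 100 bp to both sides. The deposited lists give for each peak an interval and a MACS2 score, whose unit is not named, and the score was used only within its list. Brain had 1 list from 2 lanes.

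Python 3.11.15 with pandas 2.3.3, NumPy 2.4.6 and SciPy 1.17.1 gave the overlaps, distances, ranks and runs. Overlap of at least 1 bp counted as presence. Shares have Wilson and differences Newcombe or normal 95% intervals. With 1 list per condition no test across samples exists, and positions were not randomized. The code was tested on simulated lists, where it recovered 1404 of 1404 built-in regions with 0 false ones. The simulated sites lay far apart with small shifts, so this recovery does not test regions near the overlap threshold. Regions were named by rank and run length: the 5 longest runs, the 5 highest by the lower of both percentiles, and 3 each in all and in none of the embryonic lists, with the extreme chromosomes and windows. The regions and their rule were chosen with earlier results of these data known. A genome or annotation of the build was not used here, so no sequence or gene is given. Methylation-poor brain libraries were not analysed here.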

Additional observations from a re-analysis of the deposited data

Results flagged for a closer look

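Of 3 groups of 4 lists examined for a value far from the rest, 1 held such a value. The number of peaks shared with sperm and absent from the other terminal tissues was 19356 in brain, against 144, 310 and 383 in eye, heart and liver. The brain list is the longest of the 4 and was called on reads of both lanes, which cannot be told apart from the tissue. The number is what the rule for these regions counts, so it describes the choice. The 4 counts also depend on each other, since each tissue's peaks must be absent from the other 3, so no chance rate applies. With lists of equal length the counts were 1629 in brain and 396, 557 and 648 in eye, heart and liver, so brain still had the highest count. The gap above the next value was then 0.796 of the range, below the critical value used for flagging. Because the 4 counts depend on each other, this measure cannot decide whether brain stands apart in either setting.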

How the results depend on the processing

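No paired analysis was possible because each condition has 1 list. Shares are given for one-cell, mbt, 3dpf and MTX-3dpf in this order. With an overlap of at least 100 bp they were 77.4%, 79.7%, 77.2% and 68.5%, and the count by the same rule in eye was 251. With no eye, heart or liver peak center within 1000 bp, the first 3 were 83.6%, 86.3% and 80.8%. With peaks at or above each list's median score, 7597 regions met the rule, 73 in eye, and shares were 79.0% (one-cell), 93.5% (mbt) and 72.5% (MTX-3dpf). Of the 7597, 675 were among the 19356, as this setting shortens the eye, heart and liver lists as well. At equal numbers of highest-scoring peaks, 1629 regions (1225 of them among the 19356) had shares of 61.2%, 74.0%, 58.7% and 56.5%, and eye, heart and liver had 396, 557 and 648. When heart was allowed, the MTX-3dpf share was 71.2%, and when liver was allowed the 3dpf and MTX-3dpf shares were 80.8% and 71.5%. Alternatives chosen after seeing the data were a brain list as long as the liver list (3508 regions, shares of 74.0%, 80.0%, 79.0% and 74.3%) and brain scores at or above the median (1190 regions, 58.9%, 67.1%, 65.2% and 62.4%).

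The difference in one-cell presence at equal brain score from the brain peaks shared with sperm and with eye, heart or liver was 0.46 points with an interval that includes 0. It became 1.64 points with the 100 bp overlap, 2.74 with the 1000 bp distance, 1.74 with scores at or above the median, and -2.65 at equal numbers. Those of mbt, 3dpf and MTX-3dpf were -16.8, -19.4 and -17.0 points at equal numbers, and that of mbt was -2.81 with the 1000 bp distance and -2.69 with scores at or above the median. At equal sperm score that of one-cell embryos was 11.5 points, that of mbt turned to 1.27, and that of 3dpf was -0.44. The cause was not tested. Restriction to the 25 chromosomes, leaving eye out of the rule and merging overlapping brain intervals, of which there were 0, changed none of these calls. Of the regions, 18166 lay below the median brain score, and reads per list were not used here.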
